A study of Homo sapiens with 8 samples.

Results

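The proteins of the cytosolic ribosome were examined as mRNAs in 8 RNA-seq libraries of MDA-MB-231 cells, an established human breast cancer line. The genes were chosen by symbol. A gene counted as a member when it was named RPL or RPS with a number and an optional A, L, AL or X, or was RPLP0, RPLP1, RPLP2 or RPSA, and had at least 10 counts in 2 or more libraries. Of 23393 genes in the table, 81 symbols had such a name and 79 were members, 48 of the large subunit with its stalk and 31 of the small subunit. All 79 passed the expression filter and were tested. RPL10L and RPL3L, paralogs with at most 2 counts and 1 count in any library, were below the minimum.

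The 4 groups held 2 libraries each. Parental control cells and parental cells after 48 h of arginine depletion were compared with ρ0 control cells and ρ0 cells depleted in the same way. The ρ0 cells were 1 clone, number 27, derived from the parental line by removing mitochondrial DNA, and were kept by the study in medium with pyruvate, uridine and ethidium bromide. Depletion was by arginine deiminase (ADI, an enzyme that degrades arginine) at 0.3 µg/mL per the labels, whereas the paper describes medium without arginine. All cells grew in high-glucose DMEM with serum. Cells treated in this way are called starved here. The comparisons ask how starvation changed these mRNAs in each line, whether the lines responded differently, and how the lines differed before starvation. Nothing in the labels says that the libraries of a group came from separate cultures, so the p-values measure only the spread between these samples, which may be technical.

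The cytosolic ribosome joins a small subunit, which reads the mRNA, to a large subunit, which links the amino acids. Each subunit is built in the nucleolus from ribosomal RNA and many proteins that are needed in equal number, with only the acidic stalk proteins RPLP1 and RPLP2 present in more than one copy. Their mRNAs are among the most abundant in growing cells, and most begin with a C followed by a run of pyrimidines. Such a start is called a 5′ terminal oligopyrimidine (TOP) motif, and through it translation of the mRNA is held back when mTORC1 is inactive, as it is without amino acids. RNA-seq of total RNA measures the level of the mRNA and not its translation.

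The annotated starts of the members were read from RefSeq's promoter table on GRCh38.p14, in which 64 of the 79 members were matched. A C at an annotated start was found in 50 of the 64 members (78.1%), against 18.0% of 27305 genes in that table. The letters CTTT lay within 10 bases before to 15 bases after a start in 46 members (71.9%), against 13.1% of all genes. The same letters on the other strand, AAAG, lay there in 3 members (4.69%), against 10.2% of all genes. A gene with several annotated starts was counted when any of them matched, and a match is a string of letters and not a measured start. No entry was found for 15 members, among them RPL5, RPL7, RPL8, RPL23, RPL23A, RPL30, RPL37, RPL39L, RPS2, RPS15A and RPS20.

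Starts of 9 members are printed because these genes carry the results below, namely the 4 matched genes that rose most in starved parental cells (RPL27, RPL9, RPL10A, RPL24), one with a large difference between the lines (RPL38), the 2 that fell most (RPL4, RPL14), the S6 kinase substrate RPS6 and the stalk-base protein RPL12. Each run holds 15 bases before the annotated start and the first 15 bases of the first exon, 5′ to 3′ on the strand of the gene, with CTTT in capitals.
RPL27: ccggggtgaaaggttagcggaagtgtcctt
RPL9: gtacgtaatgacgacagacgttCTTTCTTT
RPL10A: tgcgcaagacatgctagtctCTTTtccggt
RPL24: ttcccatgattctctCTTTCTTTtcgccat
RPL38: aacggaagtctcgttCTTTttcgtcCTTTt
RPL4: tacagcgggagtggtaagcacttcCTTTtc
RPL14: gggcgggtcttcttccttctcgcctaacgc
RPS6: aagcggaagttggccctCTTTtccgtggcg
RPL12: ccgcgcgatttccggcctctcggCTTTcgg
They lie at chr17:42998404-42998433 (RPL27, plus strand), chr4:39458908-39458937 (RPL9, minus), chr6:35468386-35468415 (RPL10A, plus), chr3:101686704-101686733 (RPL24, minus), chr17:74203663-74203692 (RPL38, plus), chr15:66504841-66504870 (RPL4, minus), chr3:40457324-40457353 (RPL14, plus), chr9:19380222-19380251 (RPS6, minus) and chr9:127451392-127451421 (RPL12, minus). RPL24 and RPL4, which moved in opposite directions in starved parental cells, both hold the letters. Over the members, the median log2 fold change in starved parental cells was 0.10 for the 46 with CTTT near a start and 0.00 for the 18 without. Of the 46, 15 were higher and 11 lower. Of the 18, 5 were higher and 5 lower. The shares over all tested genes were 30.4% higher and 35.5% lower.

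The libraries held between 25259503 and 31022155 counts, of which 559582 to 768464 fell on the 79 members. One group stood apart. The coefficient of variation between replicates was 25.1% over all tested genes in ρ0 control cells, against 5.18% in parental control, 2.25% in starved parental and 1.84% in starved ρ0 cells. Over the members alone it was 13.6% in ρ0 control cells and 2.41% to 3.70% in the other groups. The second ρ0 control library read higher than the first for 67 of 79 members, by a median of 0.28 on the log2 scale, whereas the median over all tested genes was 0. In the parental controls the second library was higher for 71 members, but by a median of 0.06. Counts in ρ0 cells are therefore given also without each of these libraries, as are the values of several of the members named.

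The labelled line was checked by its markers. VIM, CD44, AXL and CAV1, genes of mesenchymal-like cells, were at 1697 and 1786, 810 and 809, 735 and 720, and 283 and 298 CPM in the parental controls, where CPM is the share of a library's counts that fall on a gene, scaled to a common library size. SPARC was near 0, at 2.19 and 2.54 CPM. In ρ0 control cells these 4 were higher, VIM at 2932 and 3635, CD44 at 1354 and 1583, AXL at 1200 and 1387, and CAV1 at 1002 and 945 CPM, while SPARC was at 2.25 and 0.611 CPM and did not pass. These markers also moved with starvation. Of the 5, 4 fell and 0 rose in starved parental cells, with a median of -1.48 and 3 DEGs. In starved ρ0 cells 3 fell and 0 rose, with a median of -0.73 and 1 DEG. Of all tested genes, 35.5% were lower in starved parental and 22.1% in starved ρ0 cells. DEGs that fell were 22.1% and 8.18% of them. Of 6 luminal markers, ESR1 and PGR were at or near 0 in every library, and of the 4 tested 2 fell in starved parental and 3 in starved ρ0 cells, with 2 DEGs in each. The other luminal markers also stood higher in ρ0 control cells, with EPCAM at 23.7 and 22.4 against 0.42 and 0.521 CPM, CDH1 at 15.9 and 14.1 against 0.06 and 0, GATA3 at 14.5 and 18.6 against 4.38 and 4.65, and KRT19 at 146 and 137 against 44.4 and 46.6. ASS1, the enzyme that makes arginine from citrulline, was at 0.3 and 0.104 CPM in parental and 6.35 and 11.5 CPM in ρ0 control cells. The part of these differences in the results below was not tested, and a difference between the lines cannot be told apart from a property of the 1 clone. Genes of the mitochondrial genome were not analysed here, so the ρ0 state was not checked.

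The 79 mRNAs were far from equal. Per kilobase of coding sequence, the level in parental control cells had a median of 479 CPM per kb and ranged 817-fold. The highest were RPL8 at 1885, RPLP1 at 1845 and RPL35A at 1656 CPM per kb. The lowest were RPL7 at 2.31, RPL21 at 3.43 and RPS10 at 10.3 CPM per kb, although every ribosome holds these proteins. The 7 members RPL7, RPL21, RPS10, RPL36A, RPS27, RPL17 and RPS26 had a mean under 10 CPM over the libraries. Ribosomal protein genes are copied in the genome as processed pseudogenes, and GENCODE names 1124 after the members, from 0 to 91 per gene with a median of 9. The 7 low members had a median of 26 such pseudogenes and the other 72 a median of 7.5. RPL7 had 61 and RPL21 had 66, but RPL23A with 91 and RPSA with 74 reached 111 and 195 CPM per kb. Spearman's rho between the number of pseudogenes and the level was -0.38 over the 79 genes, which share libraries and a counting step, and this is a description. How the authors' counting treated reads that match several places is not given in the sources used here, so the levels of members with many copies are uncertain. The table's 29 symbols of ribosomal protein pseudogenes held 0.0271% to 0.0335% of the counts.

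**Figure D1:**
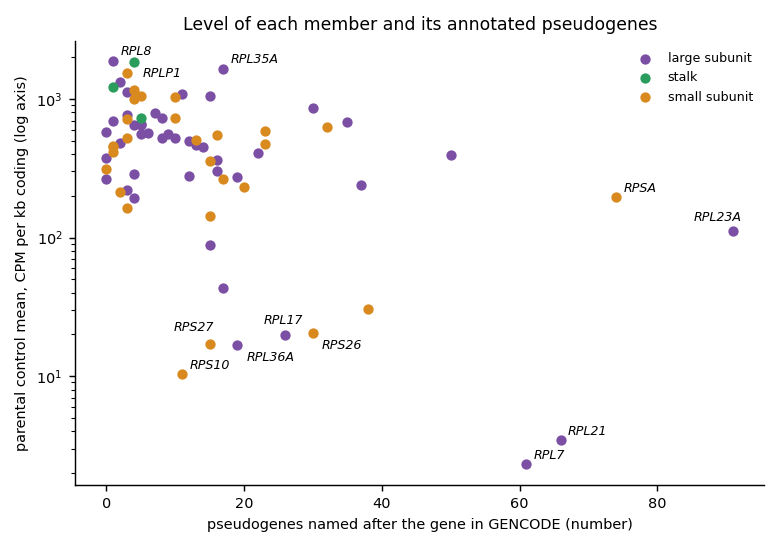
Mean level of 75 members in parental control cells (vertical axis, CPM per kilobase of coding sequence, log scale) against the number of pseudogenes named after it in GENCODE (horizontal axis), with 1 point per gene colored by subunit. RPL7 and RPL21, at 2.31 and 3.43 CPM per kb, lie lowest with 61 and 66 pseudogenes, while RPL23A and RPSA have more and lie higher.

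As a whole, the members took 2.21% and 2.33% of the counts in parental control, 2.32% and 2.35% in starved parental, 2.02% and 2.51% in ρ0 control and 2.23% and 2.22% in starved ρ0 libraries. After TMM scaling, which sets libraries to equal levels of their middle genes, their summed level was 20502 and 21569 CPM in parental control. It was 24019 and 24417 CPM in starved parental cells, so the groups did not overlap on this scale. The shares of counts did overlap, with 2.33% in the second control and 2.32% in the first starved library. The separation of the parental groups thus depends on the scaling. In ρ0 cells the sum was 20194 and 24712 CPM in control and 23343 and 23178 CPM in starved libraries, and the starved values lay between the controls. The large subunit with the stalk went from 13294 and 13965 to 15641 and 15911 CPM in parental cells. The small subunit went from 7208 and 7604 to 8378 and 8506 CPM. In these bulk libraries, fewer cells of a kind and less RNA per cell cannot be told apart, and a level is a share of the RNA sequenced.

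**Figure D2:**
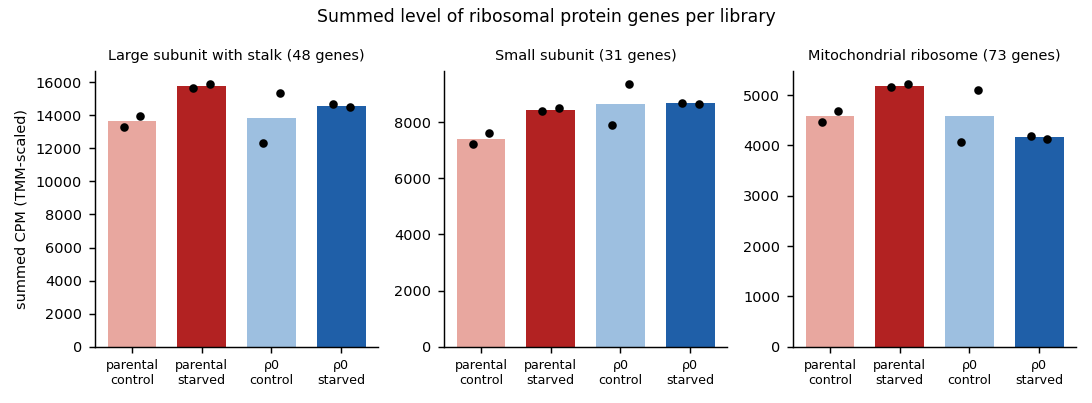
Summed TMM-scaled CPM (vertical axis) in parental and ρ0 cells, control and starved, for the large subunit with stalk, the small subunit and, for comparison, the mitochondrial ribosome. Points are libraries and bars are means of 2, and the starved parental points lie above both parental controls in each panel, while the ρ0 control points straddle the starved ρ0 points. The parental order depends on the scaling. By share of counts, the starved parental libraries lay between the controls for the small subunit and the mitochondrial ribosome. For the large subunit they lay above both.

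In starved parental cells, members moved in both directions. By edgeR's quasi-likelihood test at a Benjamini-Hochberg adjusted p under 0.05, 28 rose, 18 fell and 33 did not pass, which is 35.4% higher and 22.8% lower. Of all 15262 tested genes, 30.4% were higher and 35.5% lower by the same rule. A differentially expressed gene (DEG) also had a log2 fold change above 1 or below -1. This held for 5 members that rose and 0 that fell, whereas 12.7% of tested genes were DEGs that rose and 22.1% DEGs that fell. The median log2 fold change of the members was 0.09, with the middle part of the distribution between -0.21 and 0.48, and that of all tested genes was -0.07. The direction of the members' median depended on the scaling, since it was -0.03 with upper-quartile scaling and -0.07 with total counts. Total counts gave 19 higher and 26 lower members, but that scaling moved all genes down, with 3777 higher and 6261 lower and a median of -0.23 over all tested genes. Upper-quartile scaling gave a median of -0.19 over all tested genes, so the members' median lay above it under each of these scalings. In the small subunit 13 of 31 rose and 5 fell, and in the large subunit with stalk 15 of 48 rose and 13 fell.

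The 5 DEGs were RPL27, RPL9, RPL10A, RPS2 and RPL24. RPL27, a protein of the large subunit, read 278 and 296 CPM in control and 663 and 711 CPM in starved parental cells. It rose by a log2 fold change of 1.26 ± 0.09 (SE), with an adjusted p of 2.96e-05. RPL9, at 43.3 CPM per kb one of the scarcer members in parental control cells, went from 24.5 and 25.7 to 56 and 58.3 CPM (1.19 ± 0.20). RPL10A, which forms the flexible L1 stalk, went from 358 and 368 to 803 and 772 CPM (1.12 ± 0.17). All 3 more than doubled, as every DEG that rose did by definition. Their groups did not overlap, but this also held for members that were not called, such as RPL3 and RPS14. RPS2, a small-subunit protein near the mRNA entry site, went from 171 and 241 to 496 and 394 CPM (1.11 ± 0.24), with the widest replicate spread of the 5. RPL24, which takes part in a bridge between the subunits, went from 135 and 139 to 290 and 295 CPM (1.09 ± 0.13). Among those that passed, RPL23 followed at 0.97 ± 0.15, then RPL38 at 0.84 ± 0.07, and RPL37 and RPL26 both at 0.82. RPS27, at 0.88 ± 0.50, did not pass.

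Among the 18 that fell, none reached a halving. RPL4, a large protein that lines the exit tunnel, dropped from 722 and 747 to 380 and 393 CPM, a log2 fold change of -0.93 ± 0.14 with an adjusted p of 0.000729. RPL14 dropped from 126 and 126 to 65.2 and 69 CPM (-0.91 ± 0.14). The groups were apart in both. RPL17 (-0.64 ± 0.16), RPL11 (-0.62 ± 0.10) and RPL39L (-0.62 ± 0.20) came next. RPS6, the small-subunit protein phosphorylated by S6 kinase downstream of mTORC1, fell from 385 and 379 to 266 and 264 CPM (-0.53 ± 0.18). With 1 library left out at a time, 21 of the 28 rises and 5 of the 18 falls were called in every case, the latter being RPL4, RPL11, RPL14, RPL15 and RPL29. Without a parental or a starved ρ0 library, fewer members passed in each direction, and fewer of all tested genes did. Without a ρ0 control more passed in each direction, both among the members and over all tested genes. The members' median was 0.09 without the first and 0.13 without the second ρ0 control. No called member changed sign.

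**Figure D3:**
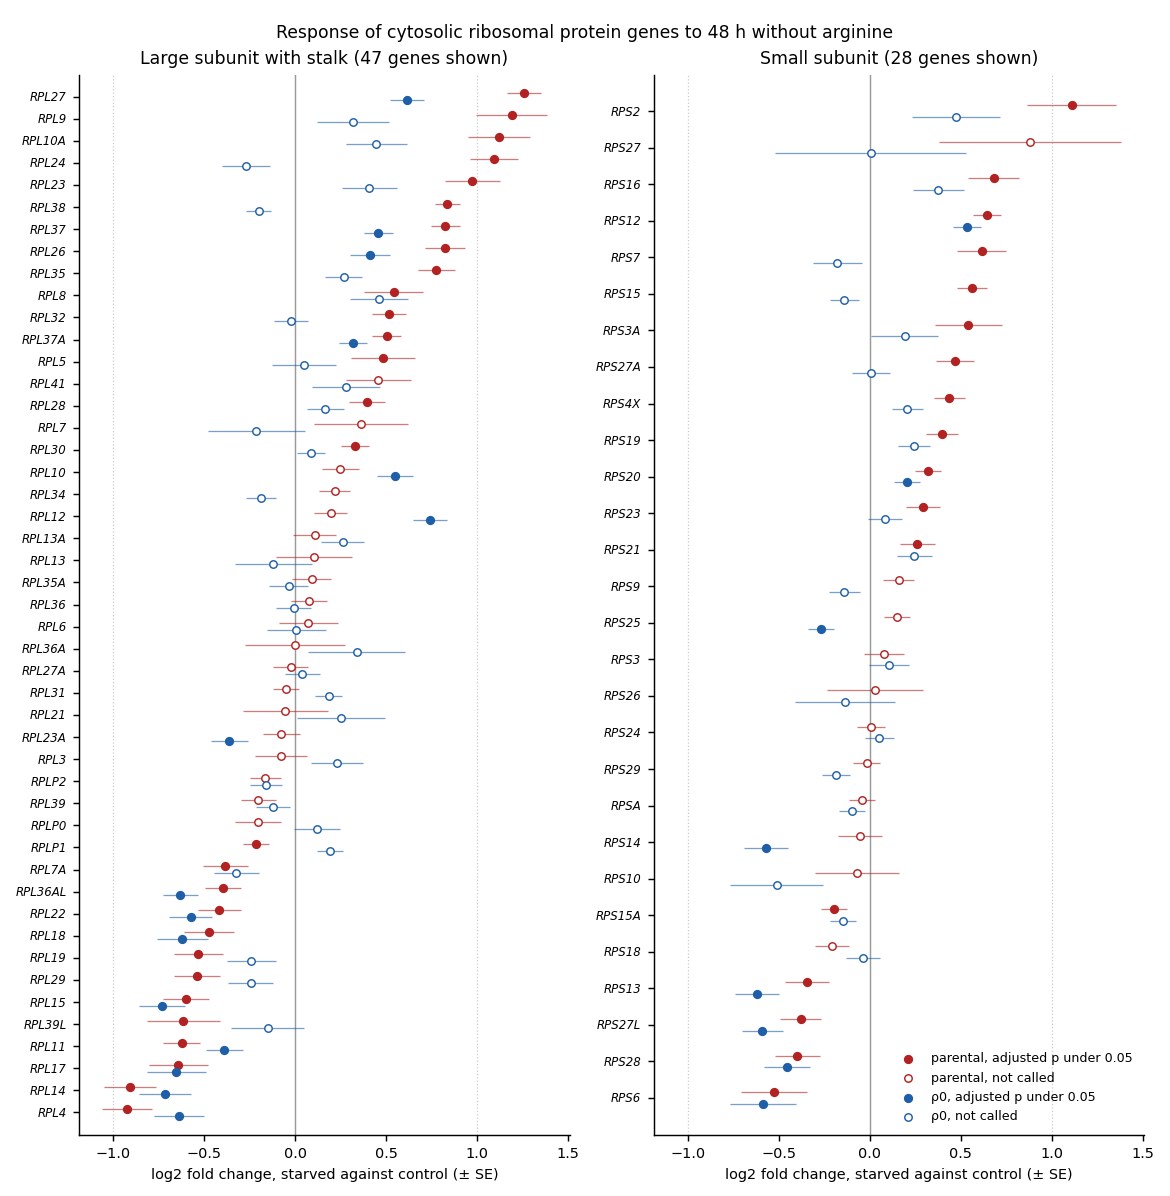
Log2 fold change of the members plotted (47 and 28 genes), starved against control (horizontal axis, points with SE bars), in parental (red) and ρ0 cells (blue), ordered by the parental value within each subunit. Filled points have an adjusted p under 0.05 and dotted lines mark 1 and -1. The values run from -0.93 for RPL4 to 1.26 for RPL27 in parental cells and from -0.73 to 0.74 in ρ0 cells.

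In starved ρ0 cells fewer members passed the test. Of 79, 8 rose and 15 fell, which is 10.1% and 19.0%, and 56 did not pass. Of all tested genes, 19.2% were higher and 22.1% lower. No member was a DEG in either direction, whereas 4.22% of tested genes were DEGs that rose and 8.18% DEGs that fell. The members' median was -0.01 and that of all tested genes was -0.02. These counts rest on the ρ0 control libraries. Without the first, 19 rose and 38 fell with a median of -0.13, and without the second, 37 rose and 20 fell with a median of 0.14. Over all tested genes, 2937 rose and 3371 fell of 15262, against 4825 and 4959 of 15588 without the first and 4801 and 4919 of 15583 without the second, so more passed in those fits in general. The lone ρ0 control in such a fit takes its spread from the tighter other groups, so a call made again is no sign of stability. In one or both of these fits 50 members changed their call, and RPL5, RPL6, RPL36, RPL39L and RPS27 passed in opposite directions. Without the first or the second starved ρ0 library, fewer passed in each direction, both among the members and over all tested genes. Scaling by total counts gave 6 higher and 21 lower members, with 2416 higher and 3909 lower over all tested genes. The count of rises also depended on the fit. DESeq2 called 17 members higher and 17 lower, against 3045 and 3229 of all tested genes, and edgeR corrected for gene length and GC content called 18 higher and 15 lower, against 3008 and 3379.

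RPL12, which with the P proteins forms the base of the stalk, rose most with all libraries. It went from 169 and 199 to 310 and 305 CPM, a log2 fold change of 0.74 ± 0.09 with an adjusted p of 0.000949 by edgeR. It had 0.63 and 0.88 without the first and the second ρ0 control, and without the second RPS27 was higher, at 1.40. RPL27 went from 445 and 502 to 743 and 707 CPM (0.61 ± 0.09). RPL10, one of the last proteins to join the large subunit, went from 249 and 301 to 405 and 400 CPM (0.55 ± 0.10). RPS12 rose by 0.53 ± 0.08. For RPL12, RPL27, RPL10 and RPS12 the starved libraries lay above both controls. RPS2, the fifth highest value at 0.48 ± 0.24, did not pass the test, but it read 0.85 and passed without the second ρ0 control. RPL10A (0.44 ± 0.17), RPL8 (0.46 ± 0.16), RPL9 (0.32 ± 0.20) and RPL6 (0.01 ± 0.16) did not pass either. Without the first and the second ρ0 control, RPL10A had 0.18 and 0.78, RPL8 0.21 and 0.77 and RPL6 -0.25 and 0.34, all of which passed, and RPL9 had 0.02 and 0.72, of which the latter passed. With all libraries RPL15 had the lowest value, with 381 and 504 CPM in control and 265 and 267 CPM in starved cells (-0.73 ± 0.13). Without the first ρ0 control it had -0.92 and RPL14 was lowest (-0.93). Without the second it had -0.51 and RPS27L was lowest (-0.72). RPL14 at -0.72 ± 0.14, RPL17 at -0.66 ± 0.16, RPL4 at -0.64 ± 0.14 and RPL36AL at -0.63 ± 0.10 also fell. Without the first and the second ρ0 control, RPL14 was at -0.93 and -0.45 and RPL4 at -0.85 and -0.38. RPS6 also fell (-0.59 ± 0.18), with -0.87 and -0.22 in these fits.

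The calls of the lines can be set side by side. Both lines had RPL26, RPL27, RPL37, RPL37A, RPS12 and RPS20 among the genes that rose, 6 genes that make up 21.4% of the 28 in parental and 75% of the 8 in ρ0 cells. Both had RPL4, RPL11, RPL14, RPL15, RPL17, RPL18, RPL22, RPL36AL, RPS6, RPS13, RPS27L and RPS28 among the genes that fell, 12 genes that make up 66.7% of the 18 and 80% of the 15. These shared calls use a spread pooled over all groups. Fitted to the ρ0 libraries alone, fewer members rose and far fewer fell in ρ0 cells, as given under the processing below. Over all 14127 genes tested in that fit, 1462 were higher and 1665 lower. The calls that would stay shared in it were not counted. With all libraries none was called in opposite directions, against 3.64% of all tested genes. Over all tested genes, the 2005 called higher in both lines were 43.2% of those higher in parental and 68.3% of those higher in ρ0 cells, and the 2224 called lower in both were 41.0% and 66.0%. A further 252 were higher in parental and lower in ρ0 cells, and 303 the reverse. These counts moved without a ρ0 control library, in fits in which more genes passed. Without the first, 16 members rose and 19 fell in both lines, 11 rose in parental and fell in ρ0 cells and 2 did the reverse, so that 16.5% were called in opposite directions against 15.1% of all tested genes. Without the second, 29 rose and 13 fell in both lines, and 4 and 3 were opposite, 8.86% against 8.29%. RPL38, which rose in parental and fell in ρ0 cells, and RPLP1, which did the reverse, were opposite in both fits.

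The difference between the responses was then tested as an interaction (ρ0 minus parental). It passed for 16 members, of which 14 (17.7%) had a lower and 2 (2.53%) a higher response in ρ0 cells. Of all tested genes, 18.8% had a lower and 21.6% a higher response. The median difference of the members was -0.16 and that of all tested genes was 0.02. With upper-quartile scaling or total counts, 4 were higher and 7 lower, with 3713 and 2280 or 3692 and 2313 over all tested genes. Over all tested genes the calls with all libraries were 3295 higher and 2872 lower. Without the first ρ0 control library the members' median difference was -0.26, and without the second it was -0.08. Over all tested genes these medians were 0.06 and 0.03. Some members took opposite signs in these fits, among them RPL6 (-0.32 and 0.22), RPL8 (-0.33 and 0.19) and RPS6 (-0.34 and 0.27). The lone ρ0 control in such a fit takes its spread from the tighter other groups. More genes then pass, so a call made again is no sign of stability. Without any one of the other 6 libraries, 0 or 1 were higher and 4 to 6 lower, while over all tested genes the counts also fell, to between 1961 and 2227 higher and between 1473 and 1725 lower. RPL24, RPL27, RPL38 and RPS15 were called with each of the 8 libraries left out in turn.

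RPL24 differed most, by -1.36 ± 0.19 on the log2 scale with an adjusted p of 0.00177. It doubled in parental cells, as given above, but read 138 and 186 CPM in ρ0 control and 132 and 136 CPM in starved ρ0 cells, where the change did not pass (-0.27 ± 0.13), although without the first ρ0 control it did (-0.47). RPL38, a small protein of the large subunit, went from 242 and 234 to 418 and 432 CPM in parental cells and from 292 and 291 to 253 and 254 CPM in ρ0 cells, a difference of -1.04 ± 0.10. The ρ0 change itself did not pass with all libraries (-0.20 ± 0.07, adjusted p of 0.0537 by edgeR), but it did without the first and without the second ρ0 control (-0.20 and -0.19). Its ρ0 control libraries were nearly equal, so this value barely moved when either was left out (-1.03 and -1.06). RPL9 differed by -0.87 ± 0.28, and by -1.17 and -0.51 without the first and the second ρ0 control. RPS7 differed by -0.79 ± 0.19 and RPS15 by -0.70 ± 0.12. RPS15, near the decoding centre, rose from 89.8 and 95.8 to 136 and 138 CPM in parental cells and was at 134 and 149 against 130 and 127 CPM in ρ0 cells. In the other direction, RPL12 differed by 0.55 ± 0.13 and RPLP1 by 0.41 ± 0.10. RPS27 at -0.88 ± 0.72 did not pass. Its ρ0 control libraries read 1.42 and 5.98 CPM, and the difference was -1.55 and passed without the first, but was 0.49 and did not pass without the second. RPL39L at 0.46 ± 0.28 and RPL36A at 0.34 ± 0.38 did not pass either, but RPL39L passed at 0.85 without the first and RPL36A at 0.80 without the second.

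**Figure D4:**
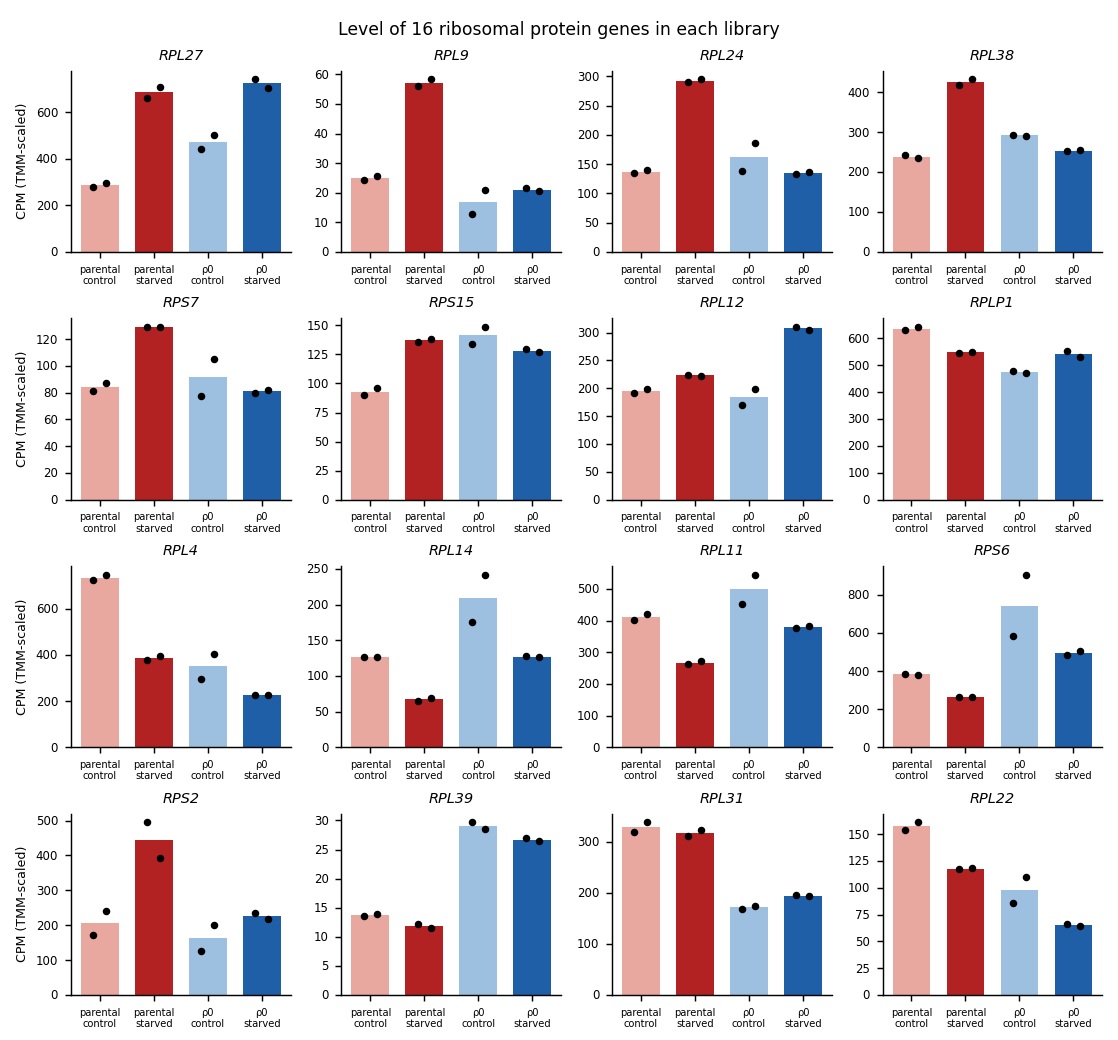
TMM-scaled CPM (vertical axes, each from 0) of 16 members in the 4 groups, with libraries as points and means of 2 as bars. RPL24 and RPL38 are highest in starved parental cells, RPL4, RPL14, RPL11 and RPS6 are lower in starved cells of both lines, and the ρ0 control points are often far apart, as for RPS6 at 582 and 907 CPM.

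Before starvation the lines already differed in these mRNAs. In ρ0 control against parental control, 28 members (35.4%) were higher and 18 (22.8%) lower, against 30.5% and 31.8% of all tested genes. DEGs were 2 higher and 2 lower members, against 13.6% and 17.3% of tested genes. The members' median was 0.08 and that of all tested genes was -0.01, and without the first or the second ρ0 control library the members' median was 0.23 or 0.02, with 44 higher and 22 lower or 35 higher and 30 lower. Over all tested genes these fits gave 5879 higher and 6164 lower, or 6080 and 5817, against 4662 and 4847 with all libraries. In these fits RPL5 (0.23 and -0.33), RPS27 (0.46 and -1.56) and RPS27L (-0.21 and 0.15) were among the members that took opposite signs. Scaling by total counts gave 25 higher and 23 lower and turned the median to -0.014, with a median of -0.11 over all tested genes. RPL39, a very short protein of the exit tunnel, was at 29.7 and 28.5 against 13.5 and 13.9 CPM (1.09 ± 0.10, adjusted p of 5.71e-05). RPL4 was lower, at 296 and 405 against 722 and 747 CPM (-1.07 ± 0.14). RPL41, the shortest of the ribosomal proteins, was at 7.98 and 8.94 against 13.9 and 20.3 CPM (-1.01 ± 0.18). RPS6 at 0.96 ± 0.18, RPS4X at 0.90 ± 0.09 and RPL28 at 0.80 ± 0.10 were higher. RPL31 at -0.94 ± 0.07, RPL6 at -0.88 ± 0.16 and RPLP0 at -0.86 ± 0.13 were lower. RPL31 was at 169 and 173 against 318 and 338 CPM, the tightest of these.

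RPL5, RPL11, RPL23 and RPL26 also have roles outside the ribosome, where they bind the ubiquitin ligase MDM2. In starved parental cells 3 rose and 1 fell, where 30.4% of all tested genes were higher and 35.5% lower. In starved parental cells RPL23 rose from 268 and 284 to 528 and 555 CPM and RPL26 from 196 and 202 to 350 and 353 CPM. RPL5, which enters the ribosome as a particle with RPL11 and 5S RNA, rose by 0.48 ± 0.18, while its partner RPL11 fell from 401 and 422 to 262 and 272 CPM. In ρ0 cells RPL26 rose (0.41 ± 0.11) and RPL11 fell (-0.39 ± 0.10), and the values of RPL23 (0.41 ± 0.15) and RPL5 (0.05 ± 0.18) did not pass. Without the first and the second ρ0 control, RPL5 had -0.23 and 0.40 and RPL23 0.18 and 0.69 in ρ0 cells, all of which passed. RPL26 had 0.25 and 0.60 and RPL11 -0.52 and -0.24. With all libraries the interaction passed for none of these 4 genes. In the same fits without a ρ0 control it passed in both for RPL23 (-0.79 and -0.32) and RPL26 (-0.56 and -0.26), without the first for RPL5 (-0.71) and without the second for RPL11 (0.35).

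Of the stalk proteins, which recruit elongation factors, RPLP1 fell in parental cells from 631 and 642 to 547 and 551 CPM (-0.21 ± 0.07), and was at 477 and 469 against 552 and 529 CPM in ρ0 cells (0.19 ± 0.07, not called). RPLP0 (-0.21 ± 0.13) and RPLP2 (-0.16 ± 0.09) did not pass in parental cells, nor in ρ0 cells (0.12 ± 0.13 and -0.16 ± 0.09). In ρ0 cells RPLP1 passed without either ρ0 control (0.21 and 0.19), RPLP2 without the first (-0.24) and RPLP0 without the second (0.35). Several members serve as reference genes in expression assays or are known for their level. RPL13A had values of 0.11 ± 0.12 in parental and 0.26 ± 0.12 in ρ0 cells, RPS3 of 0.08 ± 0.11 and 0.11 ± 0.11, RPL3 of -0.08 ± 0.14 and 0.23 ± 0.14, and RPSA of -0.04 ± 0.07 and -0.10 ± 0.07, none of which passed. Without the second ρ0 control library, RPL13A (0.47), RPS3 (0.27) and RPL3 (0.50) passed in ρ0 cells. RPS14 and RPS19 are mutated or lost in forms of anemia. RPS14 fell in ρ0 cells (-0.57 ± 0.12), with -0.05 ± 0.12 in parental cells and an interaction that passed (-0.52 ± 0.17). Without the first and the second ρ0 control its fall was -0.75 and -0.35 and its interaction -0.69 and -0.34. RPS19 rose in parental cells (0.40 ± 0.09), with 0.24 ± 0.09 in ρ0 cells, where it passed without either ρ0 control (0.18 and 0.32). RPL10 had 0.25 ± 0.10 in parental cells, which did not pass. RPL41 went from 13.9 and 20.3 to 23.1 and 23.6 CPM in parental cells (0.46 ± 0.18, not called).

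Several members have a near copy, and reads shared between copies are uncertain. RPL22 fell in both lines, from 154 and 161 to 117 and 118 CPM in parental and from 85.3 and 110 to 66.4 and 64.7 CPM in ρ0 cells. Its paralog RPL22L1, which the name rule leaves out, rose in both, from 54.3 and 57.6 to 229 and 240 CPM (2.07 ± 0.09) and from 47.3 and 52.8 to 174 and 178 CPM (1.81 ± 0.09). RPL26L1 rose in parental cells (1.26 ± 0.16), where RPL26 rose as well, and had 0.11 ± 0.16 in ρ0 cells, or 0.39 and passing without the second ρ0 control. RPL7L1 rose in parental cells from 96.9 and 89.8 to 220 and 228 CPM (1.26 ± 0.20), while RPL7 was listed at 1.71 and 1.74 CPM and 2.42 and 2.02 CPM. RPS27L, a copy of RPS27, fell in both lines (-0.38 ± 0.11 and -0.59 ± 0.11), and RPS27 had 0.88 ± 0.50 and 0.00 ± 0.53. Without the first and the second ρ0 control RPS27 had -0.68 and 1.40 in ρ0 cells, both of which passed. RPL36AL fell in both lines (-0.40 ± 0.10 and -0.63 ± 0.10), with RPL36A at 0.00 ± 0.28 and 0.34 ± 0.27, the latter 0.83 and passing without the second ρ0 control. RPL39L fell in parental cells, and RPL39 had -0.20 ± 0.10. FAU, which encodes a ribosomal protein fused to a ubiquitin-like one and stands outside the name rule, did not pass in either line, but fell in ρ0 cells without the first ρ0 control (-0.41). RACK1, a scaffold on the small subunit, fell in parental cells (-0.42 ± 0.15).

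The genes that make ribosomes were compared with the ribosomal proteins themselves. Of 62 assembly factors, the nucleolar proteins that process ribosomal RNA and put the subunits together, 51 rose and 2 fell in starved parental cells. That is 82.3% and 3.23%, against 30.4% and 35.5% of all tested genes. Their median was 0.91 and 28 were rising DEGs, as were 12.7% of all tested genes. PNO1, which matures the small subunit, went from 63.8 and 63.1 to 337 and 343 CPM (2.42 ± 0.30), and RRP12 from 92.6 and 96.6 to 492 and 479 CPM (2.36 ± 0.31). IMP3 (-1.19 ± 0.14) and NHP2 (-1.06 ± 0.15) fell. The median of the ribosomal proteins in the same libraries was 0.09. With total counts 43 factors rose and 2 fell. In ρ0 cells 15 rose and 2 fell, or 24.2% and 3.23% against 19.2% and 22.1% of all tested genes, with a median of 0.23, and PNO1 rose by 1.04 ± 0.29 and NMD3 by 1.01 ± 0.07. PNO1 was at 51.8 and 111 CPM in ρ0 control and 168 and 168 CPM in starved ρ0 cells, and its rise was 0.60 without the first and 1.71 without the second control. Without the first ρ0 control library 21 rose and 28 fell with a median of -0.10, and without the second 55 rose and 2 fell with a median of 0.60, so the sign rests on the first library. The interaction passed for 28 factors with a lower and 1 with a higher response in ρ0 cells, with a median of -0.70. That is 45.2% and 1.61%, against 18.8% and 21.6% of all tested genes. The median difference was -0.95 without the first and -0.40 without the second ρ0 control.

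Of 14 genes of RNA polymerase I and its factors, which transcribe ribosomal RNA, 11 rose and 2 fell in parental cells. That is 78.6% and 14.3%, against 30.4% and 35.5% of all tested genes. RRN3 (2.05 ± 0.19) and CD3EAP (1.68 ± 0.34) rose most, and TAF1C (-0.51 ± 0.10) and UBTF (-0.46 ± 0.10) were lower. In ρ0 cells 4 rose and 1 fell, or 28.6% and 7.14%, against 19.2% and 22.1% of all tested genes, with a median of 0.18. Without the first ρ0 control library 5 rose and 6 fell with a median of -0.11, and without the second 11 rose and 2 fell with a median of 0.52. Other mRNAs with a TOP start, such as those of elongation factors moved in both directions. Of 22, 8 rose and 6 fell in parental cells, or 36.4% and 27.3%, against 30.4% and 35.5% of all tested genes. Their median was 0.14, or -0.02 with total counts. The DEGs were 0 that rose and 3 that fell, against 12.7% and 22.1% of all tested genes. In ρ0 cells 5 rose and 5 fell, or 22.7% each, against 19.2% and 22.1% of all tested genes. Their median of 0.01 became -0.10 without the first and 0.20 without the second ρ0 control library. VIM, also a mesenchymal marker, fell most in both lines (-1.71 ± 0.12 and -0.77 ± 0.12). Of 15 host genes of small nucleolar RNAs, which guide the modification of ribosomal RNA, 8 rose in each line. In parental cells 2 fell, so 53.3% rose and 13.3% fell, against 30.4% and 35.5% of all tested genes. In ρ0 cells 1 fell, so 53.3% rose and 6.67% fell, against 19.2% and 22.1%. Without the first ρ0 control library 8 rose and 5 fell in ρ0 cells, and without the second 13 rose and 1 fell. ZFAS1 went from 121 and 127 to 509 and 513 CPM in parental and from 125 and 177 to 510 and 517 CPM in ρ0 cells, and SNHG15 rose by 2.66 ± 0.36 in parental cells.

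**Figure D5:**
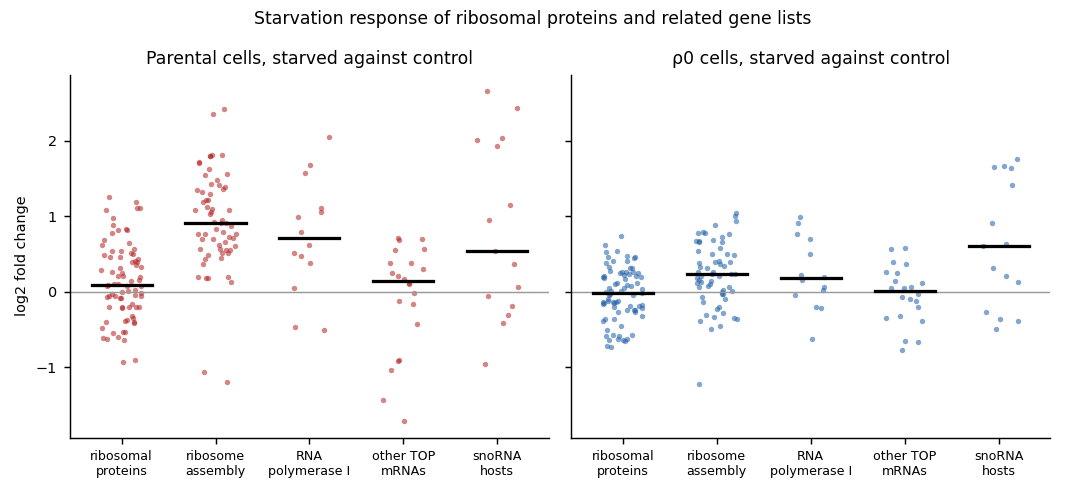
Log2 fold change, starved against control (vertical axis), of each gene in 5 lists in parental (left) and ρ0 cells (right), with points as genes and black lines as medians. In parental cells the assembly factors have a median of 0.91 and the ribosomal proteins of 0.09.

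The mitochondrial ribosome, built of other proteins that mostly serve mRNAs of the mitochondrial genome, was the closest family for comparison. Of 73 genes, 25 rose and 21 fell in parental cells with a median of 0.18. That is 34.2% and 28.8%, against 30.4% and 35.5% of all tested genes. In ρ0 cells 3 rose and 26 fell with a median of -0.21, or 4.11% and 35.6%, against 19.2% and 22.1%. The median was -0.35 without the first and -0.02 without the second ρ0 control library. The interaction passed for 22 with a lower and 2 with a higher response, or 30.1% and 2.74%, against 18.8% and 21.6%. Its median of -0.31 was -0.42 without the first and -0.15 without the second ρ0 control library. Of 15 regulators, 9 rose and 3 fell in parental cells, or 60% and 20%, against 30.4% and 35.5% of all tested genes. The DEGs were 2 that rose and 3 that fell, against 12.7% and 22.1% of all tested genes. With total counts 6 rose and 6 fell, against 3777 and 6261 of all tested genes. In ρ0 cells 6 rose and 3 fell, or 40% and 20%, against 19.2% and 22.1%. There 3 were DEGs that rose and 1 a DEG that fell, against 4.22% and 8.18%. The median of 0.03 was 0 without the first and 0.16 without the second ρ0 control. MYC, a transcription factor that drives ribosome genes, went from 588 and 590 to 3102 and 3154 CPM in parental cells (2.41 ± 0.15) and from 132 and 186 to 634 and 637 CPM in ρ0 cells (1.997 ± 0.15). CDKN1A rose by 2.004 ± 0.09 in parental cells, and EIF4EBP1, which holds back translation when mTORC1 is inactive, rose by 1.35 ± 0.13 in ρ0 cells. MYCN, a relative of MYC, was at 3.51 and 3.27 CPM in parental control and 0.119 and 0.0709 CPM in starved parental cells and at 0 counts in every ρ0 library. MXD4, which opposes MYC, fell in parental cells (-1.29 ± 0.14), and EIF4EBP2 fell in ρ0 cells (-0.63 ± 0.07).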

How the data were processed

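RNA-seq of total RNA was analysed for 8 libraries, 2 per group. The authors deposited their read counts as 1 table, with a row for each gene symbol and no normalization. The submitters' processing notes name Bowtie, Partek and hg19 without versions or roles, and the annotation and the treatment of reads with several matches are not given in the sources used here. The tests were run with edgeR 4.0.16 under R 4.3.3 (TMM scaling, filterByExpr, quasi-likelihood test). All 8 libraries entered 1 fit with 1 mean per group (4 residual degrees of freedom, prior 3.40, biological coefficient of variation 12.4%), and p-values were adjusted over all 15262 tested genes by the Benjamini-Hochberg method. A call had an adjusted p under 0.05, and a DEG also at least a doubling or halving. Standard errors were derived from each log2 fold change and its F statistic. The test was tried on simulated counts first. DESeq2 1.42.0 and limma 3.58.1 (voom) were alternatives, with other scalings, filters, a GC and length correction and each library left out. Coding lengths and pseudogene names came from GENCODE v29 by symbol.

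The members and lists were chosen with earlier results of these data known. Genes were named by a rule: per contrast the 5 highest and 5 lowest members and every DEG, members with set roles or paralogs, the 3 highest and lowest levels per kilobase, and the 2 highest and lowest of each other list. RPS15 and the members listed by name beside a count were chosen after their values were seen. Some genes that the rule would name are not reported here, but they are counted.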

Additional observations from a re-analysis of the deposited data

Results flagged for a closer look

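The response to starvation differed between the lines, by the interaction test over all tested genes at an adjusted p under 0.05, for 16 ribosomal protein genes, of which 15 are named. Of the 79 members 17.7% were lower and 2.53% higher, against 18.8% and 21.6% of all tested genes. Each value is the log2 fold change in ρ0 cells minus that in parental cells. It was negative for RPL24 (-1.36), RPL38 (-1.04), RPL9 (-0.87), RPS7 (-0.79), RPS15 (-0.70), RPL27 (-0.64), RPL32 (-0.54), RPS14 (-0.52), RPL35 (-0.51), RPS27A (-0.46), RPS25 (-0.42), RPL34 (-0.40) and RPL37 (-0.37). It was positive for RPL12 (0.55) and RPLP1 (0.41). RPL27 and RPL37 rose in both lines. RPS14 and RPS25 fell in ρ0 cells and did not pass in parental cells. RPL34 passed in neither line on its own.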

How the results depend on the processing

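No named gene that was called with all libraries changed sign under any alternative run. Genes not called with all libraries could change sign. In starved ρ0 cells without the first and the second ρ0 control, RPL5 had -0.23 and 0.40, RPS27 -0.68 and 1.40 and RPL39L 0.23 and -0.44. Of the values for named genes under the alternatives, 2309 stayed on their side of the threshold, 140 lost the call and 143 gained one. Scaling moved the median of all tested genes in starved parental cells from -0.07 to -0.19 (upper quartile) and -0.23 (total counts), and the members' median to -0.029 and -0.071. With these scalings the interaction passed for 4 higher and 7 lower members. In starved ρ0 cells, DESeq2 called 17 members higher, the GC and length correction 18, and the fit to the ρ0 libraries alone 5 higher and 2 lower. Over the 14127 genes tested in that last fit, 1462 were higher and 1665 lower. At an adjusted p under 0.01, 23 members rose and 8 fell in parental cells (3682 and 4389 of all 15262 tested genes), 5 rose and 8 fell in ρ0 cells (1726 and 1974), 0 were higher and 4 lower in the interaction (1862 and 1387), and 22 were higher and 11 lower between the control groups (3560 and 3805). The cause was not tested.

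With 1 library left out, which assumes that a lone library varies like the other groups, 22 to 41 rose and 6 to 25 fell in parental cells (median 0.06 to 0.13), and 5 to 37 rose and 3 to 38 fell in ρ0 cells (median -0.13 to 0.14). The interaction passed for 0 to 22 higher and 4 to 45 lower members (median -0.26 to -0.08). Between the control groups 20 to 44 were higher and 10 to 30 lower (median 0.018 to 0.23). The replicate numbers did not pair the libraries (correlations of deviations between -0.053 and 0.039). With the replicate block 28 members rose and 16 fell in parental, and 9 rose and 15 fell in ρ0 cells. In the interaction 2 were higher and 14 lower, and between the control groups 29 higher and 19 lower. Over all tested genes the block gave 4553 higher and 5343 lower in parental and 2799 and 3116 in ρ0 cells. It gave 3098 and 2633 in the interaction, and 4526 and 4772 between the control groups. Restricting to members with a mean of at least 10 CPM, chosen after seeing the data, gave 28 and 17, 8 and 14, 2 and 14, and 28 and 17. Of the 7 members under 10 CPM, RPS27 had 41 to 214 counts per library, and what depth adds to the replicate spread was not tested.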
